A study of Mus musculus with 6 samples.

Results

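Accessible chromatin around the interferon receptor genes was read from ATAC-seq counts over 25 peaks of 43020, 6 in a window around Ifngr1 on chromosome 10 and 19 in a window that holds Ifnar2, Il10rb, Ifnar1 and Ifngr2 on chromosome 16. A peak was a member if it overlapped chr10:19200000-19450000 or chr16:91350000-91600000 (mm9), and each window is 250 kb long. The first group, called tumour-derived lines below, held 3 libraries of mouse colon cancer organoid lines, numbered as primary tumour replicates 1 to 3. They were grown from primary tumours that AKP organoids had formed in the colon of C57Bl6 recipient mice, and were passaged until cancer cells alone remained. The other group held 3 libraries of naive AKP organoids, called naive cultures below, which had been in no mouse. AKP is the genotype that the labels give for all 6 libraries. All 3 lines share their stay in a mouse, the culture from a tumour and the passages after it, whose effects cannot be told apart.

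ATAC-seq cuts open chromatin with the Tn5 transposase, so the reads over a region rise with its accessibility. Total counts in peaks lay between 1916819 and 3594735 in tumour-derived lines and between 1185356 and 5987545 in naive cultures, with naive replicate 1 the shallowest and naive replicate 2 the deepest. The fewest reads per window were 497 in the chromosome 16 window and 294 in the Ifngr1 window, both in naive replicate 1. The labels do not say whether replicates came from separate cultures or animals. The p-values therefore set the difference between groups only against the spread between these libraries. In a bulk culture, fewer open cells and less accessibility per cell cannot be told apart. The labelled cell type was not checked against marker genes, since the peaks carry no gene names.

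Interferons signal through pairs of receptor chains. Interferon gamma, made mainly by T cells and natural killer cells, binds Ifngr1, the ligand-binding chain, and recruits Ifngr2, the chain that brings Jak2 into the complex. Type I interferons bind Ifnar1 and Ifnar2, which work with Tyk2 and Jak1. Il10rb, which lies among them, is the shared second chain of the receptors for interleukin 10, interleukin 22 and type III interferons. In the intestinal epithelium, interferon gamma raises antigen presentation and the release of chemokines that attract T cells. The series is titled for SOX17 and the escape of early colorectal cancer from immunity, and the receptors are the entry point of the interferon signal in tumour cells. Accessibility at a gene is not a measure of its RNA or protein, which were not analysed here.

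In the RefSeq table of build GRCm38.p6, Ifnar2, Il10rb, Ifnar1 and Ifngr2 follow each other as neighbouring coding genes on chromosome 16. Olig1 comes before them and Tmem50b after them. Ifngr1 lies between Olig3 and Il22ra2 on chromosome 10. No mm9 annotation was used here. For Ifngr1 an approximate mm9 span, 19312000 to 19330000 on chromosome 10, came with the choice of window. The peaks of the chromosome 16 window are therefore given by number and coordinates, in order along the chromosome, and are not assigned to single genes.

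RefSeq promoter sequences (GRCm38.p6, plus strand, 250 bases before to 50 after the gene start) were found for 4 of the 5 receptor genes, the exception being Il10rb. They are shown because they hold the DNA where transcription of each interferon receptor begins, and the strongest peak of the Ifngr1 window covers the start of Ifngr1. Capitals mark the motifs searched on both strands, which were the GC box GGGCGG, the CCAAT box CCAAT, the interferon-stimulated response element GAAANNGAAA, the gamma-activated site TTCNNNGAA and the SOX core ACAAT.
Ifngr1: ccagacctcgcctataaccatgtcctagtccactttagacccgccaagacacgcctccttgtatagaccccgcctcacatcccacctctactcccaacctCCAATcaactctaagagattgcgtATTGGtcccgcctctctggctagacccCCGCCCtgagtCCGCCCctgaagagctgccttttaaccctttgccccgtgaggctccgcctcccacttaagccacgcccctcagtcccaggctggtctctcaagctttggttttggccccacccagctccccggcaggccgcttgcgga
Ifngr2: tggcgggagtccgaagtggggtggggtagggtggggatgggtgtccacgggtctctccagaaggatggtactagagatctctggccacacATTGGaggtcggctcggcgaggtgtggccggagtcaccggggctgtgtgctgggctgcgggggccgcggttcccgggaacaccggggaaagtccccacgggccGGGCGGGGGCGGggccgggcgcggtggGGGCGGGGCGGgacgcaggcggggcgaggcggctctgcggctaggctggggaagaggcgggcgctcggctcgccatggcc
Ifnar1: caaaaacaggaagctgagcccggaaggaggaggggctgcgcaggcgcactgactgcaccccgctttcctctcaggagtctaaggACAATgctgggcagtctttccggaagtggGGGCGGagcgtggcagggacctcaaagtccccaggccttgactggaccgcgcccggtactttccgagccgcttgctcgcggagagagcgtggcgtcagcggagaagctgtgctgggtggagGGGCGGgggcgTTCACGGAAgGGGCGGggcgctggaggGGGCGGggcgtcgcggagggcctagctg
Ifnar2: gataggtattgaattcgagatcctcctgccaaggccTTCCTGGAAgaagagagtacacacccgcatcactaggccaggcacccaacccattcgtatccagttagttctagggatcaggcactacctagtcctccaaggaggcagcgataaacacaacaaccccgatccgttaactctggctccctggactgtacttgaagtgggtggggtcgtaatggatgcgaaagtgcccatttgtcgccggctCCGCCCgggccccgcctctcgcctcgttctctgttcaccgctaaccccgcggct
All 4 held more G and C than the median of 52.7% over 32851 RefSeq promoters. The share was 60.3% in Ifngr1, 74.3% in Ifngr2, 68.3% in Ifnar1 and 57.0% in Ifnar2. In the same order, 71.4%, 95.6%, 88.0% and 62.6% of all promoters held less, so Ifnar2 and Ifngr1 were not unusual. GC boxes, the core of the sites of Sp1-type factors, were matched 2 times in Ifngr1, 4 times each in Ifngr2, where matches touch or share a base, and Ifnar1, and 1 time in Ifnar2. At least 1 GC box is found in 35.7% of all promoters. The CCAAT box, the core of the sites of nuclear factor Y, was matched 2 times in Ifngr1 and 1 time in Ifngr2 (37.4% of all promoters). None of the 4 held the interferon-stimulated response element (3.44% of all promoters). The gamma-activated site was matched 1 time each in Ifnar1 and Ifnar2 (8.3%), and the SOX core 1 time, in Ifnar1 (31.0%). A match is a string of letters and not a shown binding site.

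The peaks of the receptor windows were ordinary in size and somewhat stronger than the genome's. Their median width was 715 bp (354 to 1750 bp), against 746 bp over all peaks, and their median level was 16.4 counts per 1000000 (CPM), against 12.8 CPM. The chromosome 16 window was dense. Of 7198 windows of 250 kb with at least 1 peak, 3.10% held 19 peaks or more, and the median window held 4. The Ifngr1 window, with 6 peaks, was near the middle, since 42.2% of windows held 6 peaks or more. Neighbouring peaks were a median of 8.75 kb apart on chromosome 16 and 20.8 kb apart around Ifngr1.

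**Figure D1:**
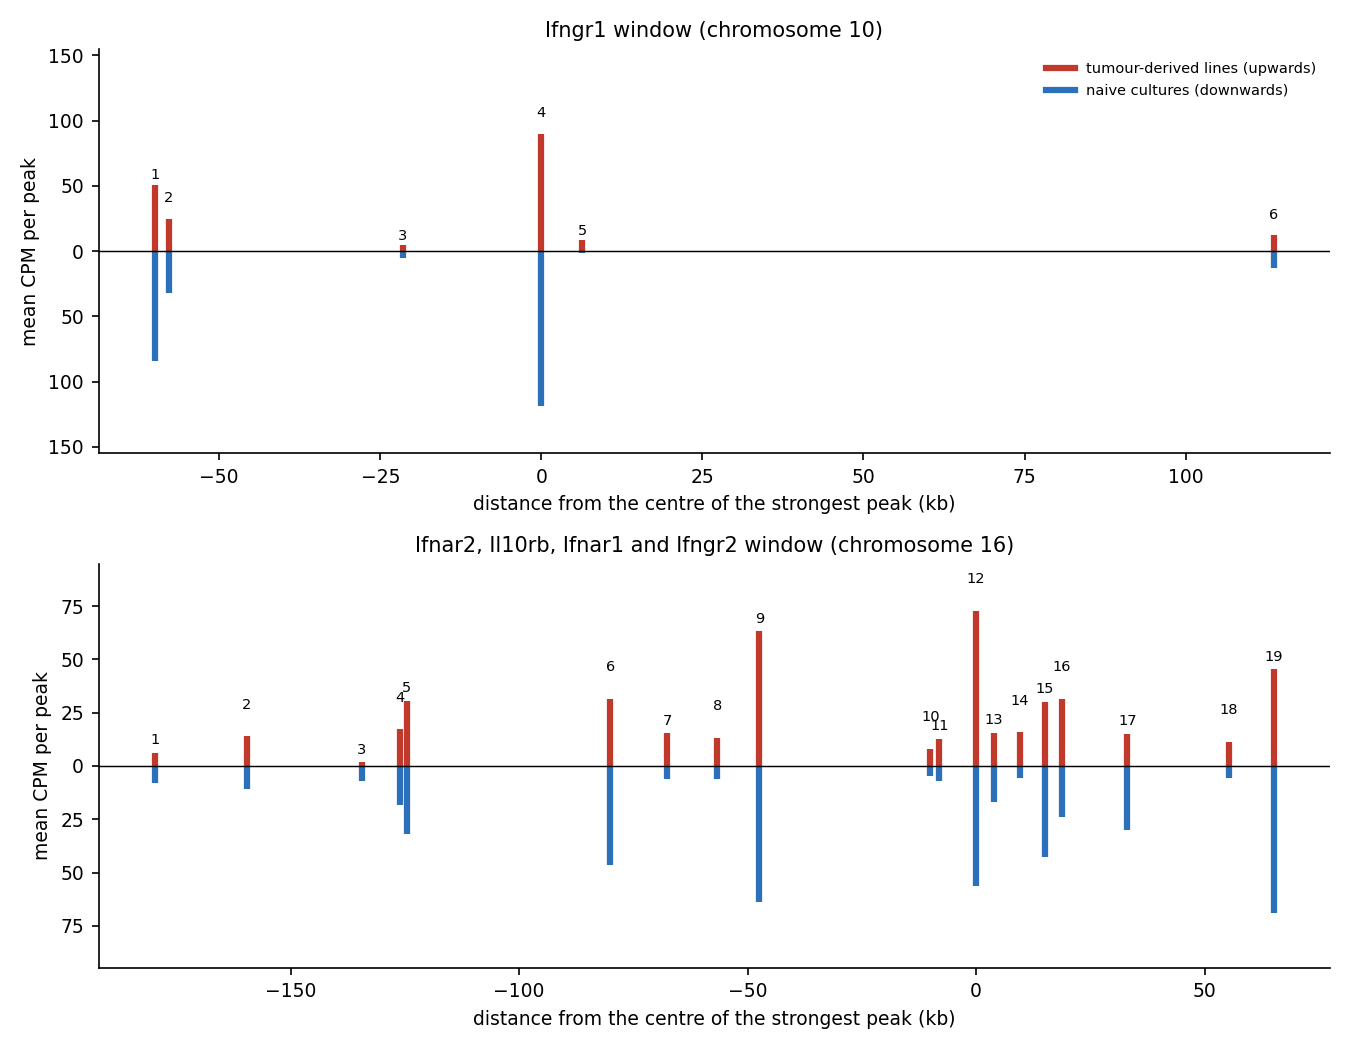
Mean accessibility of each of the 25 peaks, in CPM over 3 libraries, against the distance of the peak from the centre of the strongest peak of its window in kb. Bars point upwards for tumour-derived lines and downwards for naive cultures, and numbers give the order of the peaks. Peak 4 of the Ifngr1 window stands highest, with means of 89.7 CPM and 119 CPM, and the chromosome 16 window holds several peaks of similar height.

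The tumour-derived lines differed from naive cultures at few of these peaks. Reads were compared with edgeR's quasi-likelihood test over all peaks of the genome, with calls made where the Benjamini-Hochberg adjusted p was under 0.05. The filter on low counts kept 24 of the 25 peaks, of which 2 were called higher and 1 was called lower in tumour-derived lines. Over the genome 14.4% of 36179 tested peaks were called (8.00% higher and 6.40% lower), so a count of 3 of 24, 12.5%, is near the background. The median log2 fold change, primary tumour minus naive, was -0.06 over the 24 and -0.01 over all tested peaks. All libraries of the primary tumour group lay above all naive libraries at 5 peaks and below them at 4, where the genome has 15.5% and 15.3%. None of the 3 calls held in every alternative setting, and none changed direction in any of the 14. The share of calls over the genome that held in every setting was not counted. Without primary tumour replicate 2, naive replicate 1 or naive replicate 2, edgeR called 0 of these peaks, against 9.76%, 12% and 5.82% of tested peaks over the genome. With all 6 libraries 8 of the 24 had an unadjusted p under 0.05, as had 9915 of 36179 peaks over the genome. Without naive replicate 3 it called 1 (10.4% over the genome) and without primary tumour replicate 3 it called 2 (10.8%). Without primary tumour replicate 1 it called 4 (14.5%), none of them among the 3. Abundance-trended offsets left 1 call (14.3%), and the replicate number added to the model as a block left 0 (9.78%). The median standard error over the 24 was 0.37 on the log2 scale and the smallest change called was -0.99, so a peak that was not called may still differ between the groups.

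**Figure D2:**
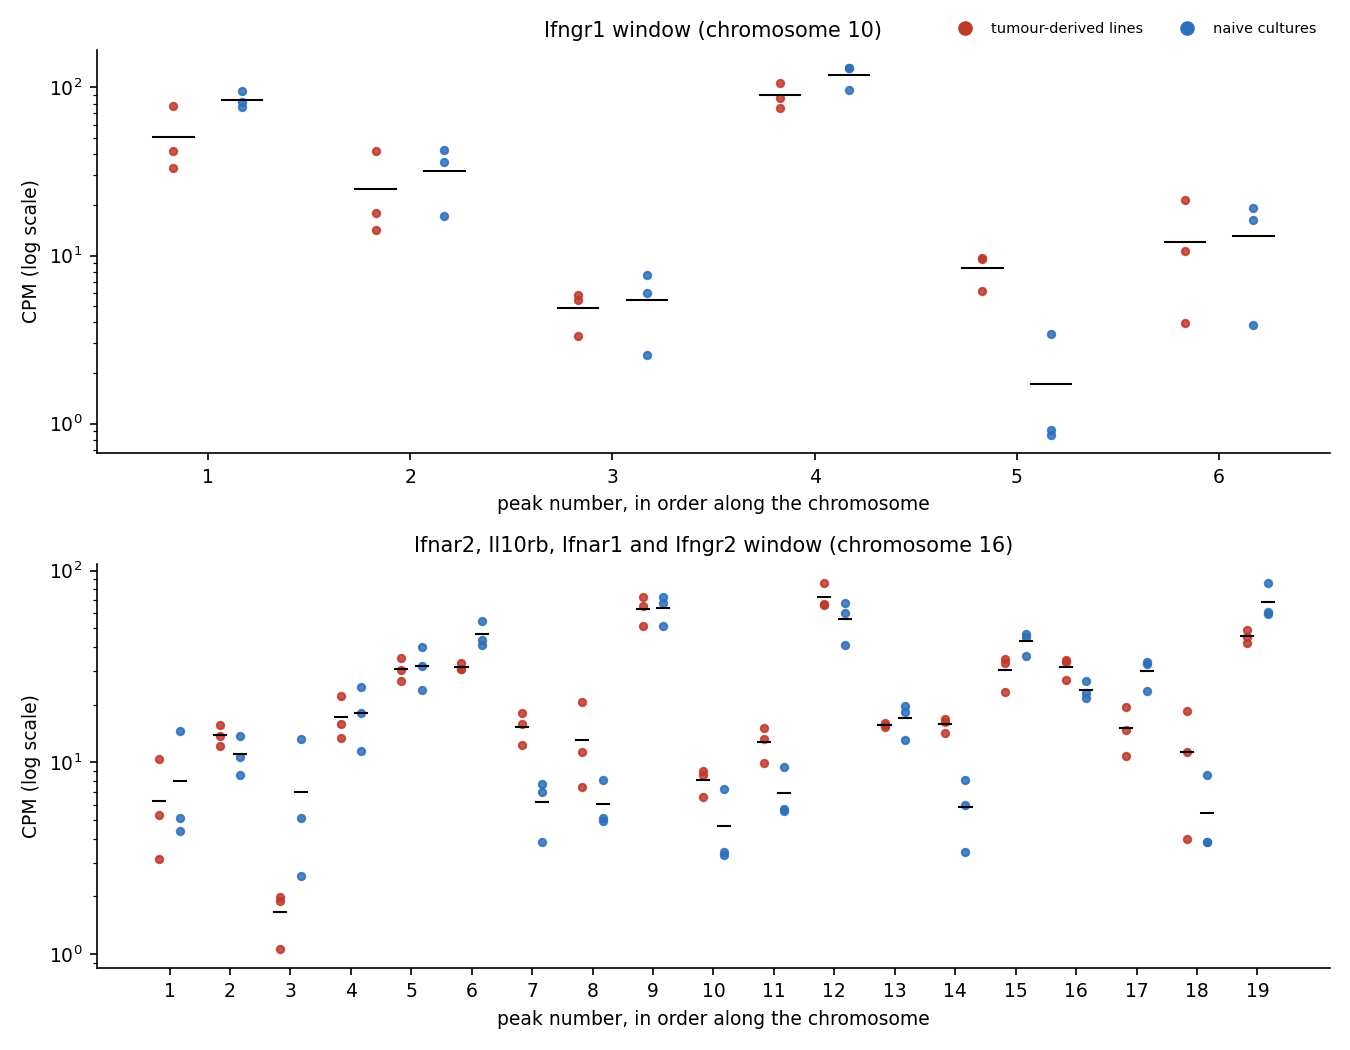
Accessibility in CPM (log scale) of each peak in each library, with tumour-derived lines left of naive cultures and a black line at the mean of 3. At most peaks the groups overlap. All tumour-derived lines lie above all naive libraries at peak 5 of the Ifngr1 window and at peaks 7, 11, 14 and 16 of the chromosome 16 window, and below them at peaks 3, 6, 15, 17 and 19 of the chromosome 16 window.

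The start of Ifngr1, the binding chain for interferon gamma, was the most accessible place in either window in both groups. This peak, chr10:19311311-19312112, is 801 bp wide, overlaps the start of the Ifngr1 span and is stronger than 97.2% of all peaks. It held 87.0, 106 and 75.9 CPM in tumour-derived lines and 130, 130 and 96.1 CPM in naive cultures. Primary tumour replicate 2 reached into the naive range, and the other lines lay below it. The means were 89.7 ± 15.4 and 119 ± 19.8 CPM (SD, n = 3 each), and the log2 fold change of -0.41 did not pass the test (SE 0.20, 95% interval -0.82 to 0.01, adjusted p = 0.195, edgeR). Its adjusted p lay between 0.130 and 0.530 when 1 library was left out.

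Inside Ifngr1, 5.87 kb after the start of the span, a small peak was higher in the tumour-derived lines and had few reads in naive cultures. This peak, chr10:19317866-19318233, held 9.70, 9.53 and 6.17 CPM in tumour-derived lines, against 0.858, 0.919 and 3.42 CPM in naive cultures. All tumour-derived lines lay above all naive libraries. The values rest on 34, 18 and 13 reads in tumour-derived lines and on 1, 5 and 8 reads in naive cultures. The log2 fold change was 2.29 (SE 0.67, 95% interval 0.91 to 3.67, adjusted p = 0.0219, edgeR), a fitted 4.88-fold rise. Only the tumour-derived lines had enough reads here for the filter on low counts. The peak was thus tested through the group where it is high, so its entry to the test is not independent of the difference. For each 100 reads at the start peak, this peak had 9.41 ± 1.56 in tumour-derived lines and 1.64 ± 1.66 in naive cultures (SD, n = 3 each), a ratio that needs no scaling of libraries. The start peak was itself lower in tumour-derived lines (log2 fold change -0.41, which did not pass the test), and this raises the ratio. The call of the small peak was lost without primary tumour replicate 1 or 2 or naive replicate 1 or 2 (adjusted p = 0.0599, 0.0720, 0.0522 and 0.148, edgeR). It was also lost with the replicate block (adjusted p = 0.0615, edgeR). Without naive replicate 3, which holds most of the naive signal, the log2 fold change was 3.15. The peak is weak, stronger than 19.6% of all peaks.

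Before Ifngr1 lay a pair of peaks, about 58 to 61 kb from its start. At the stronger of them the tumour-derived lines were split. The stronger, chr10:19251145-19252232, held 77.9, 41.8 and 33.2 CPM in tumour-derived lines and 81.5, 95.2 and 76.0 CPM in naive cultures. Primary tumour replicate 1 lay within the naive range, and replicates 2 and 3 lay far below it. With all libraries the log2 fold change was -0.71 (SE 0.26, adjusted p = 0.0666, edgeR), and without primary tumour replicate 1 it was -1.17 (adjusted p = 0.00135). That omission was picked after the values were seen. With each library left out in turn the log2 fold change ran from -1.17 to -0.47, with adjusted p up to 0.318 (edgeR). Its neighbour, chr10:19253618-19254170, was also highest in primary tumour replicate 1, with 41.9, 14.3 and 18.0 CPM in tumour-derived lines. In naive cultures that neighbour had 17.2, 42.6 and 35.9 CPM, so the groups overlapped (log2 fold change -0.38, adjusted p = 0.568). Naive cultures were spread there too, with an SD of 13.2 CPM against 15.0 CPM in tumour-derived lines. Without primary tumour replicate 1 its value was -1.03 (adjusted p = 0.0411). Over chromosome 10 as a whole primary tumour replicate 1 was instead the lowest of the lines, with a median log2 ratio to the naive mean of -0.12, against 0.01 and 0.04 in replicates 2 and 3. With an offset per library and chromosome the log2 fold change of the stronger peak was -0.65 (adjusted p = 0.115, edgeR).

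The remaining peaks of the Ifngr1 window did not differ beyond the spread between libraries. At chr10:19289892-19290480 there were 5.42, 5.82 and 3.32 CPM in tumour-derived lines and 6.01, 2.57 and 7.69 CPM in naive cultures (log2 fold change -0.08, SE 0.62). At chr10:19424860-19425933, about 113 kb after the start, libraries of both groups ranged widely, from 3.99 to 21.3 CPM in tumour-derived lines and from 3.86 to 19.2 CPM in naive cultures. The standard error there was 0.59 on the log2 scale, so a 2-fold difference in either direction was not detectable.

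**Figure D3:**
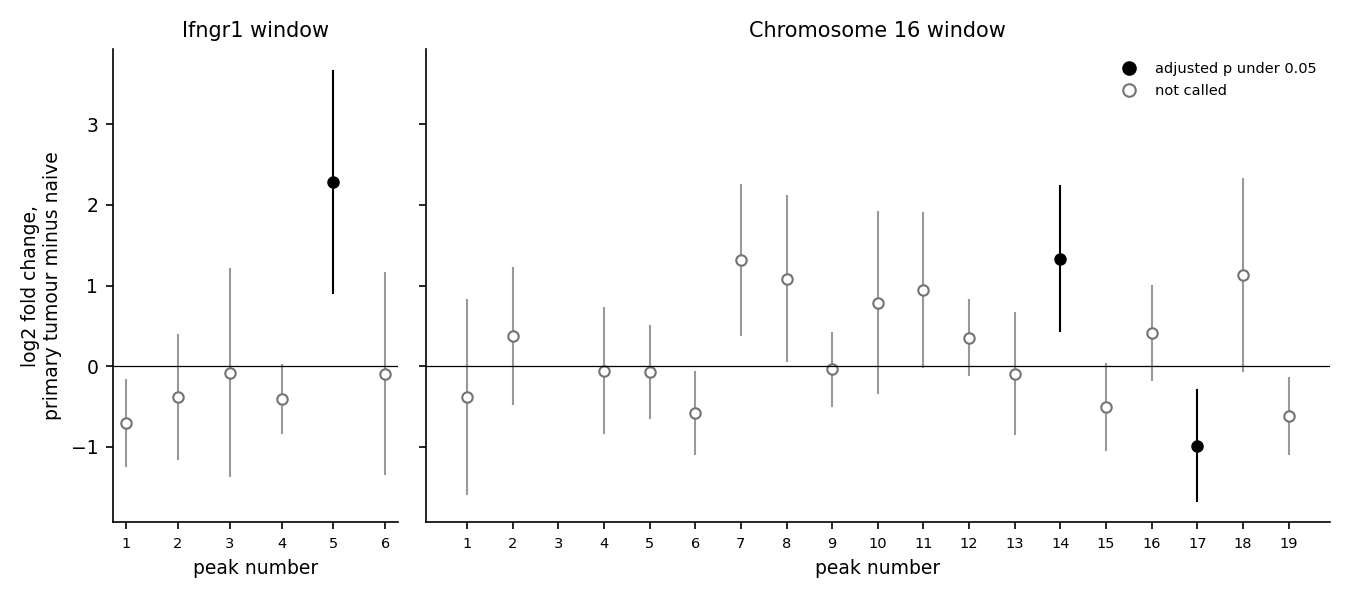
Log2 fold change, primary tumour minus naive, of the 24 tested peaks, with 95% intervals from edgeR's quasi-likelihood fit. Filled points mark peaks called at an adjusted p under 0.05, which are peak 5 of the Ifngr1 window (2.29) and peaks 14 (1.33) and 17 (-0.99) of the chromosome 16 window. Peak 3 of the chromosome 16 window was not tested.

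In the chromosome 16 window the share of called peaks was near the background. Of 18 tested peaks around Ifnar2, Il10rb, Ifnar1 and Ifngr2, 9 had a log2 fold change above 0 and 9 below 0. Among them 1 was called in each direction, and 16 did not pass the test. The called share was 11.1%, against 14.4% over the genome and 15.6% over chromosome 16. The strongest peak, chr16:91532352-91533427, held 85.8, 66.7 and 65.9 CPM in tumour-derived lines and 41.2, 67.4 and 59.8 CPM in naive cultures. The groups overlapped, through naive replicate 2, and the log2 fold change of 0.35 did not pass the test (95% interval -0.11 to 0.82, adjusted p = 0.337, edgeR). Close to it in strength was chr16:91485094-91485860, with 63.1 ± 10.5 CPM in tumour-derived lines and 64.0 ± 11.1 CPM in naive cultures (SD, n = 3 each). There the interval of the log2 fold change ran from -0.50 to 0.42 around -0.04, and the sign turned with total-count scaling, with trended offsets and without primary tumour replicate 3 or naive replicate 2.

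The peak called higher in this window was chr16:91542194-91542842, 9.63 kb after the strongest peak. It held 16.3, 16.9 and 14.2 CPM in tumour-derived lines and 3.43, 8.08 and 5.98 CPM in naive cultures. The groups did not overlap, and tumour-derived lines were close to each other. The log2 fold change was 1.33 (SE 0.44, 95% interval 0.43 to 2.24, adjusted p = 0.0411, edgeR), a fitted 2.52-fold rise. Naive replicate 1 gave 4 reads here. The call was lost when any 1 of the 6 libraries was left out (adjusted p between 0.0655 and 0.121, edgeR). It was also lost with abundance-trended offsets (adjusted p = 0.0953) and with the replicate block (0.0756). A peak of like size, chr16:91464965-91465570, had 12.3, 15.9 and 18.0 CPM in tumour-derived lines and 7.72, 6.98 and 3.84 CPM in naive cultures, also without overlap. Its log2 fold change of 1.32 (SE 0.45) stood at an adjusted p of 0.050004 (edgeR), just above the threshold. It passed with total-count scaling (0.0467), with DESeq2 size factors (0.0479), with at least 20 counts asked for in at least 3 libraries (0.0420) and without primary tumour replicate 1 (0.0326). It did not pass in the other 10 settings, where the adjusted p ran up to 0.0963 with trended offsets, 0.102 with the replicate block and 0.192 without naive replicate 3 (edgeR).

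The peak called lower, chr16:91565096-91566846, was at 1750 bp the widest of the 25 peaks. It held 10.8, 14.8 and 19.4 CPM in tumour-derived lines and 32.6, 23.5 and 33.3 CPM in naive cultures, with no overlap. The log2 fold change was -0.99 (SE 0.33, 95% interval -1.67 to -0.30, adjusted p = 0.0467, edgeR). Its call was lost with total-count scaling (adjusted p = 0.0755), with the DESeq2 test (0.0506), with trended offsets (0.0510) and with the replicate block (0.0868). It was also lost with at least 20 counts asked for in at least 3 libraries (0.0556) and without any 1 library other than primary tumour replicate 3 (0.0764 to 0.164). Next lowest was the last peak of the window, chr16:91597683-91598398, with 41.9, 45.0 and 49.3 CPM in tumour-derived lines and 59.2, 86.5 and 60.6 CPM in naive cultures. All tumour-derived lines lay below all naive libraries there, and the log2 fold change of -0.62 did not pass the test (SE 0.23, adjusted p = 0.0679, edgeR).

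Of the 18 tested chromosome 16 peaks, all tumour-derived lines lay above all naive libraries at 4 and below them at 4. Over the genome 15.5% of tested peaks lay above and 15.3% below. Among the separated chromosome 16 peaks, 6 were not called. Of these, chr16:91464965-91465570 and the last peak of the window are given above. At chr16:91452441-91453209 the means were 31.4 ± 1.18 CPM in tumour-derived lines and 46.5 ± 7.25 CPM in naive cultures, and at chr16:91547168-91548647 they were 30.2 ± 6.09 and 42.7 ± 5.84 CPM in the same order. Log2 fold changes were -0.58 and -0.51, with adjusted p-values of 0.123 and 0.211 (edgeR). At chr16:91551289-91551903 all tumour-derived lines lay above the naive libraries, with 31.4 ± 4.02 CPM in tumour-derived lines against 23.8 ± 2.54 CPM in naive cultures (adjusted p = 0.379). At chr16:91524550-91525082 they also lay above, with 12.8 ± 2.62 CPM in tumour-derived lines and 6.89 ± 2.20 CPM in naive cultures (log2 fold change 0.94, adjusted p = 0.190, edgeR). The overlapping peaks chr16:91475837-91476735 and chr16:91587956-91588534 had log2 fold changes of 1.08 and 1.13, and the tumour-derived lines disagreed among themselves there. The first held 7.42, 20.6 and 11.4 CPM and the second 3.99, 18.5 and 11.4 CPM in primary tumour replicates 1, 2 and 3. In naive cultures they held 5.15, 4.96 and 8.11 CPM, and 8.58, 3.86 and 3.84 CPM. Without primary tumour replicate 1 the second was called (log2 fold change 1.59, adjusted p = 0.0371, edgeR). Without primary tumour replicate 2 its log2 fold change was 0.56 (adjusted p = 0.694, edgeR).

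The 16 chromosome 16 peaks that were tested and not called had log2 fold changes between -0.62 and 1.32. Of all 18 tested peaks of the window, called or not, 10 overlapped between the groups, against 25021 of 36179 tested peaks over the genome. The untested peak, chr16:91398249-91398630, had 7, 2 and 4 reads in tumour-derived lines and 6, 14 and 31 reads in naive cultures. These are 1.65 ± 0.515 CPM in tumour-derived lines and 6.99 ± 5.57 CPM in naive cultures (SD, n = 3 each). All tumour-derived lines lay below the naive libraries, and naive replicate 3 set most of the difference in means.

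Summed over its 6 peaks, the Ifngr1 window held 228, 185 and 160 CPM in tumour-derived lines and 244, 259 and 233 CPM in naive cultures. Sums were scaled by factors fitted on windows, so the peak CPM above do not add up to them exactly. Every tumour-derived line lay below every naive library, with primary tumour replicate 1 just under the naive range. The means were 191 ± 34.7 and 245 ± 13.3 CPM (SD, n = 3 each). Among 6458 tested windows of 250 kb, with sums fitted in the same way, the log2 fold change of this window was -0.36 (SE 0.15, 95% interval -0.66 to -0.05, adjusted p = 0.113, edgeR) and was not called. The exact 2-sided permutation test gave p = 0.1, the smallest that 3 against 3 allows. Over the genome 14.7% of windows were called (8.89% higher and 5.85% lower), and in 16.3% all tumour-derived lines lay below all naive libraries. Without primary tumour replicate 1 the sum was called (-0.52, adjusted p = 0.00795), and without primary tumour replicate 3 it was -0.23 (adjusted p = 0.391, edgeR). With an offset per library and chromosome it was -0.31 (adjusted p = 0.170). The peak at the start of Ifngr1 held 47.7% ± 8.98 of the window's reads in tumour-derived lines and 46.5% ± 5.74 in naive cultures.

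The summed reads of the chromosome 16 window did not differ beyond the spread between libraries. It held 438, 458 and 460 CPM in tumour-derived lines and 412, 464 and 449 CPM in naive cultures, and the groups overlapped. The log2 fold change was 0.03 (SE 0.11, 95% interval -0.19 to 0.25, adjusted p = 0.912, edgeR; exact permutation test, 2-sided, p = 0.7). Medians over chromosome 16, as log2 ratios to the naive mean, were 0.17, 0.06 and 0.08 in primary tumour replicates 1, 2 and 3. With an offset per library and chromosome the log2 fold change of the window was -0.0253, and with the window narrowed by 50 kb on each side it was 0.147 (adjusted p = 0.468, edgeR). The log2 ratio of Ifngr1 window reads to chromosome 16 window reads, which needs no scaling, was -0.94, -1.30 and -1.53 in tumour-derived lines and -0.76, -0.84 and -0.95 in naive cultures. The groups overlapped through primary tumour replicate 1 and naive replicate 3, and the difference of -0.41 gave p = 0.2 (exact permutation test, 2-sided).

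**Figure D4:**
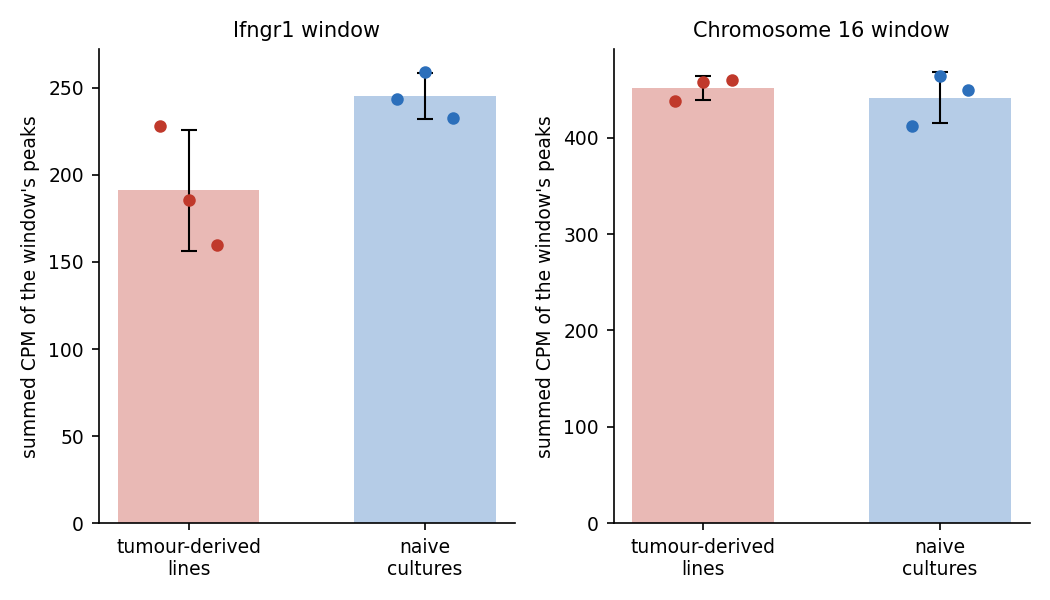
Summed accessibility of all peaks of each window in CPM, as points per library, with bars at the mean and error bars of 1 SD (n = 3 each), tumour-derived lines left of naive cultures. The Ifngr1 sums are 160 to 228 CPM in tumour-derived lines and 233 to 259 CPM in naive cultures, and the chromosome 16 sums overlap.

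**Figure D5:**
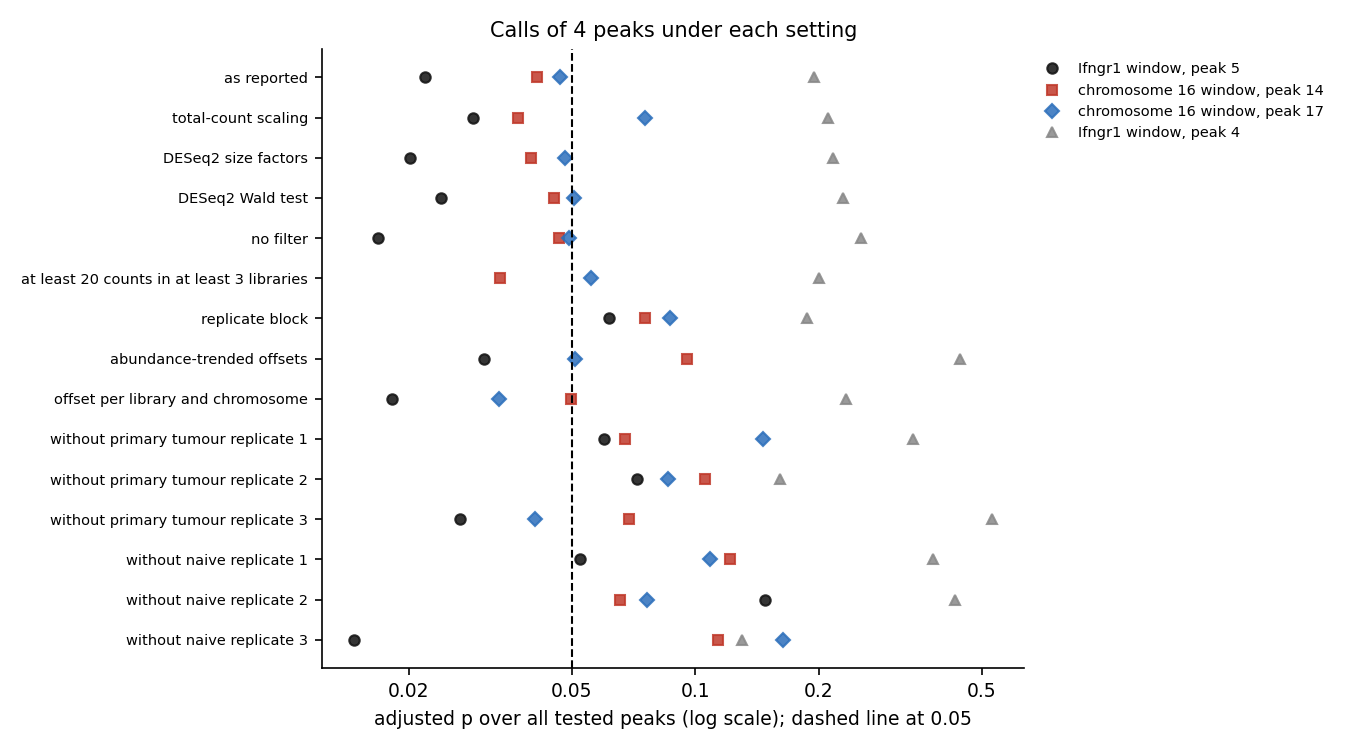
Adjusted p (log scale) of 4 peaks under each setting, with a dashed line at 0.05. The calls of peak 5 of the Ifngr1 window and of peaks 14 and 17 of the chromosome 16 window cross the line in several settings, and peak 4, at the start of Ifngr1, stays right of it throughout. Peak 5 has no point where at least 20 counts in at least 3 libraries were asked for, since it was not tested there.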

How the data were processed

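ATAC-seq was run on 6 libraries. The labels' protocols describe 50000 dissociated cells per library, treated with transposase and sequenced as read pairs of 75 bases. The authors deposited 1 table of raw read counts per peak for all libraries, over peaks named for all samples. Per the submitters' processing notes, Bowtie, Picard, SAMtools, MACS2 and bedtools were used, without versions or roles, with build mm9. Nothing in the labels or the table says how duplicates were handled or whether reads were shifted for the transposase. Either can move counts of weak peaks. Nor is it stated whether starts count from 0 or 1. The authors' score per peak was not used.

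Counts were fitted with R 4.3.3 and edgeR 4.0.16 (TMM scaling, filterByExpr, robust quasi-likelihood F test, with group alone in the model). Adjustment ran over 36179 tested peaks, or over 6458 tested windows of 250 kb tiled so that both windows were tiles. CPM are counts per 1000000 after TMM scaling, which was fitted separately for peaks and for windows. SE and 95% intervals come from the fold change, the F statistic and its degrees of freedom. Fitted folds of peaks with few reads depend on the small prior count edgeR adds. The fit was checked on simulated data for the size of the changes it returned, which does not show that it would find most changes at these peaks. Libraries of a group differed by more than counting noise (chi-square per degree of freedom 2.55 to 5.94), so none was a copy.

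All members are accounted for. Values per library were given for called peaks, the strongest peak of each window, peaks on the Ifngr1 span and the 2 highest and 2 lowest folds of each window, and others were added after their values were seen. The members, windows and tests were chosen with earlier results of these data known. Same-numbered libraries had correlations of deviations of -0.23, -0.11 and 0.01, so the numbers were not taken to pair them. Genes further along the interferon pathway were not analysed here, because no mm9 annotation was used.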

Additional observations from a re-analysis of the deposited data

How the results depend on the processing

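Of 24 tested peaks, 17 kept their direction in all of 14 alternative settings in which they were tested, the 3 called peaks among them. All 3 calls were lost in at least 1 setting, and 5 other peaks were called in at least 1. How many peaks over the genome kept, lost or gained a call in this way was not counted. These counts therefore describe the members and show no trait particular to them. The number of called members was 3, against 1 with abundance-trended offsets, 0 with the replicate block and 0 to 4 when 1 library was left out. With the replicate block the genome had 3539 calls against 5210. The replicate numbers only name the libraries, and 3 against 3 leaves few degrees of freedom under a block. Leaving out 1 library gave 2215 to 5440 calls over the genome, the lowest without naive replicate 2, the deepest library. The cause was not tested.

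The Ifngr1 window sum kept its direction throughout, between -0.52 and -0.23 when 1 library was left out, and in the settings run was called only without primary tumour replicate 1. The chromosome 16 window sum, 0.03, was -0.0253 with an offset per library and chromosome, -0.0341 when widened by 100 kb and 0.147 when narrowed by 50 kb on each side, -0.0368 without its strongest peak, and -0.0199 to 0.0681 when 1 library was left out. The difference between the windows ran from -0.57 to -0.27 when 1 library was left out. Without both strongest peaks it also kept its direction.

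The 7 peaks that changed sign were not called in any setting. On chromosome 10 the ranges without 1 library were -0.51 to 0.32 at 19289892 and -0.82 to 0.40 at 19424860. On chromosome 16 they were -0.95 to 0.38 at 91352604, -0.30 to 0.17 at 91406306, -0.26 to 0.16 at 91408068, -0.167 to 0.0946 at 91485094 and -0.277 to 0.00600 at 91536668. Total-count scaling gave 0.0136 at 91406306 and 0.0177 at 91485094, and abundance-trended offsets gave 0.11 at 91485094. Depth limits the weak peaks most, since naive replicate 1 held as few as 1 read at a called peak. Wider windows added no peak around Ifngr1.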

Other observations

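The peaks next to the windows were read out after the values inside were known. The last peak before the Ifngr1 window, chr10:18911460-18913048, lay 338 kb from its first peak and was called higher, with 24.0 ± 2.60 CPM in tumour-derived lines and 11.4 ± 3.23 CPM in naive cultures (SD, n = 3 each; log2 fold change 1.12, adjusted p = 0.0392, edgeR). The first peak after it, chr10:19627043-19628061, held 9.39 ± 1.27 CPM in tumour-derived lines and 19.1 ± 5.72 CPM in naive cultures (log2 fold change -1.05, adjusted p = 0.0705). Beside the chromosome 16 window, chr16:91342480-91344823 and chr16:91618721-91619397 had log2 fold changes of -0.23 and 0.52, with adjusted p-values of 0.862 and 0.589 (edgeR).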
